A study of Mus musculus with 16 samples.

Results

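The members are the heavy chain variable (V) segment genes of the mouse immunoglobulin heavy chain locus, taken as every gene whose symbol is Ighv followed by a digit in both deposited count tables. The rule gave 115 of the 22675 genes that the tables share. The study asked how memory-type B cells with and without the zinc finger protein Zfp318 differ, and sequenced messenger RNA of sorted C57BL/6 spleen cells 7 days after immunization with NP-OVA in alum and LPS. The sort took B220+ B cells that bound the hapten NIP and carried CD38, and that lacked IgD, CD138, GL7 and FAS. The genotype given for every sample held AID-Cre, a Cre recombinase that acts in activated B cells, together with B1-8hi and GFP. The groups differed in the ZSDAT allele of Zfp318 and in tdTomato fluorescence. Mice with 1 copy of the allele (Zfp318ZSDAT/+, heterozygous) gave the groups HetTN, sorted without tdTomato, and HetTP, sorted with it. Mice with both copies (Zfp318ZSDAT/ZSDAT, homozygous) gave KOTN and KOTP in the same way. The labels do not say which allele carries tdTomato. Each group had 4 libraries of about 1000 pooled cells, which are written here with their replicate number (HetTN-1). The labels do not say that the 4 libraries came from separate mice, so the p-values measure the spread between libraries only.

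A heavy chain V region is made when a developing B cell joins 1 V segment to a D and a J segment, so that a B cell and its descendants transcribe mainly 1 productive V segment. The V segment encodes the N-terminal part of the variable domain with the complementarity-determining regions CDR1 and CDR2, and the promoter lies just upstream of its leader exon. B1-8hi is a rearranged heavy chain knock-in with raised affinity for the haptens NP and NIP. Its V segment is Ighv1-72, long known as VH186.2, which dominates the response of C57BL/6 mice to NP and pairs with a lambda 1 light chain.

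The reference sequence of Ighv1-72 is shown first, since the results turn on it. Its coding sequence lies on the minus strand of chromosome 12 in GRCm38 (chr12:115757984-115758416) and has 351 bases in GENCODE M21, 46 in the leader exon and 305 in the V exon. Printed 5′ to 3′ is the V exon from base 12 (chr12:115757984-115758277), with the bases that differ from its closest relative, Ighv1-62-3, in capitals.
Ighv1-72: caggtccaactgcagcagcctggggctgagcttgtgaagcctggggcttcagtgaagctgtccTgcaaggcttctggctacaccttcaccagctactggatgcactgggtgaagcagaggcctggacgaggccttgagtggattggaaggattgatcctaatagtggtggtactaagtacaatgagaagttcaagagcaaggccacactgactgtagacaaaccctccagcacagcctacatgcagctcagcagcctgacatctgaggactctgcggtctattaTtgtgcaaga
The same stretch of 8 other segments follows, of at most 300 bases, with capitals for the bases that do not match Ighv1-72 in the alignment. Ighv1-62-3 (chr12:115460999-115461292) is 99.0% identical over the whole V exon, with 3 bases that differ, 2 of them in the stretch shown, and a shared run of 220 bases. Ighv1-50 (chr12:115119748-115120041, 91.8% identity), Ighv1-74 (chr12:115802648-115802941, 93.4%) and Ighv5-2 (chr12:113578504-113578799, 58.6%) are shown because they led the segments other than Ighv1-72 in all homozygous libraries but KOTP-3. Ighv7-3 (chr12:114153184-114153483, 59.0%), Ighv13-2 (chr12:114357761-114358060, 57.5%), Ighv1-42 (chr12:114937113-114937406, 86.2%) and Ighv11-2 (chr12:114048241-114048536, 59.3%) are shown because each led 1 heterozygous library. All 8 lie on the minus strand.
Ighv1-62-3: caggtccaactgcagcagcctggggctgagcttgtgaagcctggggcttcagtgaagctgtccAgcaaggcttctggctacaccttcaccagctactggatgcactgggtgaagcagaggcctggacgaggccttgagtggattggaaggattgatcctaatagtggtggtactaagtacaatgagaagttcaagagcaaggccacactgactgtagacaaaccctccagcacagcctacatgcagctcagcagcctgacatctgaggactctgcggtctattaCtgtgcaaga
Ighv1-50: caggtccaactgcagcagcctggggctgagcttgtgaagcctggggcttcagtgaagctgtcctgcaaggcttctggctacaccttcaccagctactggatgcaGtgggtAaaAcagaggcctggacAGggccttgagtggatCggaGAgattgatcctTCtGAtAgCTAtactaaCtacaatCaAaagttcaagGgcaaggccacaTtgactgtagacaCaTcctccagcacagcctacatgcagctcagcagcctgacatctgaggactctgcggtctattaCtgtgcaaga
Ighv1-74: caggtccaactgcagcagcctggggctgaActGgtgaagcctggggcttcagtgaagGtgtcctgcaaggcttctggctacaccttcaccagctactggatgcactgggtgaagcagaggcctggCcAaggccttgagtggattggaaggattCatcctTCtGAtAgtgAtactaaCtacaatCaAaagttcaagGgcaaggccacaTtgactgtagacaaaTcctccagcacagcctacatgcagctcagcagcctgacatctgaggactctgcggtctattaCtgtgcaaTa
Ighv5-2: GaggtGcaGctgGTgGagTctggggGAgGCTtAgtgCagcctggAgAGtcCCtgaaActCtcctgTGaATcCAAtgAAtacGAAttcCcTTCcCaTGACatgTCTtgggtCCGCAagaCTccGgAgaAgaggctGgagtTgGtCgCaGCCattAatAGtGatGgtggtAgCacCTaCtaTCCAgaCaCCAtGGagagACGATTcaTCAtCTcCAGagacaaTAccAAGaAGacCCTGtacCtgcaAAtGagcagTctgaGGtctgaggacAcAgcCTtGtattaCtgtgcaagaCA
Ighv7-3: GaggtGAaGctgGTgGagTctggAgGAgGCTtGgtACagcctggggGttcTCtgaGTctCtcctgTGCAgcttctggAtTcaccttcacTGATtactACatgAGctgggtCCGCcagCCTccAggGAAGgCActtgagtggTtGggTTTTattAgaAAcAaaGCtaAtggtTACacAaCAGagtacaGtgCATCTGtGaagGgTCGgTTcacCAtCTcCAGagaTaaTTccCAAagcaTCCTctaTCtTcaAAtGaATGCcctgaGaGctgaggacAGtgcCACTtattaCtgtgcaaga
Ighv13-2: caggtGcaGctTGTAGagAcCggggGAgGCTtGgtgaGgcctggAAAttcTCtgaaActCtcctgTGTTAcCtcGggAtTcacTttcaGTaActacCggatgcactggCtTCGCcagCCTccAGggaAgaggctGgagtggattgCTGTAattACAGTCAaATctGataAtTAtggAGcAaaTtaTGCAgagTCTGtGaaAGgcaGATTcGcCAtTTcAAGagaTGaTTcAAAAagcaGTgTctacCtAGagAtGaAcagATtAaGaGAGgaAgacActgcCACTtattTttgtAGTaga
Ighv1-42: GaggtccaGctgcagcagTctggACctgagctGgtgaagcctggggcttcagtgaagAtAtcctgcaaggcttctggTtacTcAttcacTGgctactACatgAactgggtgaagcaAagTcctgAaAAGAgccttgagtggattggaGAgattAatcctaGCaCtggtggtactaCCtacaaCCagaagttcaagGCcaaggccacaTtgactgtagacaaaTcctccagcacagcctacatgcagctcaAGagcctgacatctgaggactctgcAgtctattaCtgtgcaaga
Ighv11-2: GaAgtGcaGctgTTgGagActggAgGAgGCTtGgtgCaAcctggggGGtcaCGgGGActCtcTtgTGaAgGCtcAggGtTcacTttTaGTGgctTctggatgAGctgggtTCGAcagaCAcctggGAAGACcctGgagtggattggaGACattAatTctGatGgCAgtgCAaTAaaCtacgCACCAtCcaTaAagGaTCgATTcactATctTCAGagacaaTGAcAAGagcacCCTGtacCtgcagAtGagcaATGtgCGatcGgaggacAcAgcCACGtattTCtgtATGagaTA

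All 115 segments were annotated on chromosome 12, between 113578504 and 116000461, and 114 of them on the minus strand. The annotation lists 113 as V genes and 1 as a V pseudogene (Ighv1-13), and Ighv5-8 carries another immunoglobulin class. Counts were found for 102 segments in at least 1 library, and 13 had none in any library. All 102 were found in heterozygous libraries and 79 in homozygous ones, so 23 were seen in heterozygous libraries only. These numbers depend on depth, since the heterozygous libraries held more Ighv counts.

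Library totals ran from 7748787 to 15742445 counts. Zfp318 was between 71.0 and 153.3 CPM (counts per 1000000 library counts, TMM-scaled) in heterozygous and between 0.467 and 5.82 CPM in homozygous libraries. The genotypes were deposited as separate tables, with 1.35 to 1.502 counts per mapped read in the first (heterozygous) and 0.369 to 0.419 in the second, so genotype and table cannot be told apart. The 8 B cell markers summed to 9653 to 14070 CPM and 15640 to 17450 CPM, with 6 called higher and Pax5 lower in both genotype comparisons. The 8 T cell markers summed to 187.0 to 639.3 CPM in heterozygous and 28.3 to 51.1 CPM in homozygous libraries. Most of the heterozygous sum was Trac (100.4 to 432.9 CPM) and Lck (59.1 to 128.3 CPM). Cd3e was at 0 in all homozygous libraries and also in HetTN-3, HetTP-1, HetTP-2 and HetTP-4. Cd8a was found only in HetTN-2 (10.2 CPM) and HetTP-3 (6.69 CPM). Cd4 was at 0 in all libraries, and of 5 T cell markers tested 2 were lower in each genotype comparison. The 8 macrophage markers summed to 119.6 to 1203 CPM and 69.0 to 136.5 CPM, and 5 were lower in each. The germinal center markers summed to 697.3 to 1449 CPM and 298.2 to 558.9 CPM, with 4 and 5 of 8 lower, and 4 were lower in KOTP against KOTN. The plasma cell markers summed to 836.7 to 2158 CPM and 1082 to 1295 CPM, with 0 higher and 1 lower, then 1 higher and 2 lower, of 7 tested. Over all genes tested, 5.61% were called higher and 4.88% lower in KOTN against HetTN, and 5.06 and 5.22% in KOTP against HetTP. In KOTP against KOTN 1.47% were called lower. The part of these other cell types in the results was not tested.

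Ighv1-72 made up most of the Ighv counts in every homozygous library and a minority in every heterozygous library, although the labels give B1-8hi for all 4 groups. Its share of Ighv counts was 2.58, 9.26, 7.16 and 19.2% in HetTN-1 to HetTN-4 and 6.51, 11.46, 10.5 and 7.35% in HetTP-1 to HetTP-4. It was 82.8, 87.0, 87.8 and 87.2% in KOTN-1 to KOTN-4 and 87.98, 85.5, 86.8 and 86.4% in KOTP-1 to KOTP-4. The highest heterozygous library, HetTN-4, was far below the lowest homozygous library, KOTN-1, and the genotypes did not overlap. Counting error was small beside this gap, with Wilson 95% intervals of 18.6 to 20.0% for HetTN-4 and 81.1 to 84.4% for KOTN-1. Since the reads carry no molecular identifiers, such intervals cover counting error only, and they take counts as independent.

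The mean share was 9.56% ± 7.04 in HetTN, 8.96% ± 2.40 in HetTP, 86.2% ± 2.28 in KOTN and 86.7% ± 1.02 in KOTP (SD, n = 4 each). KOTN exceeded HetTN by 76.6 percentage points and KOTP exceeded HetTP by 77.7. In two-sided exact permutation tests each of these gave p = 0.0286, the smallest that 4 against 4 libraries allow over 70 arrangements, and 0.0571 after Benjamini-Hochberg adjustment over the 4 comparisons. tdTomato-positive and tdTomato-negative cells differed by -0.60 percentage points in heterozygous mice (exact permutation p = 0.9429, adjusted 0.9429) and by 0.48 in homozygous mice (exact permutation p = 0.8286, adjusted 0.9429), with overlapping libraries in both. Ighv1-72 was the leading segment in all 8 homozygous libraries and in 2 heterozygous ones, HetTN-4 and HetTP-2.

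**Figure D1:**
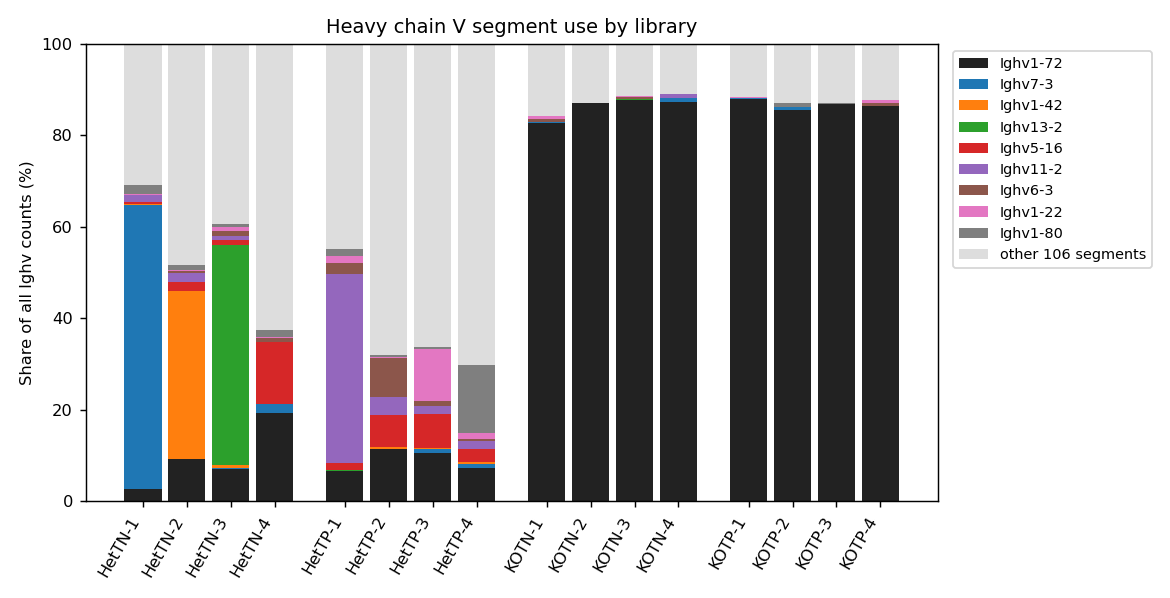
Share of all Ighv counts (%) taken by Ighv1-72, by the leading other segment of each heterozygous library and by all remaining segments together, with 1 bar per library. Ighv1-72 (black) fills 82.8 to 87.98% of each homozygous bar and 2.58 to 19.2% of each heterozygous bar. The leading coloured segment differs between heterozygous libraries and stands out most in HetTN-1, HetTN-2, HetTN-3 and HetTP-1.

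The higher share in homozygous cells came with a higher level of Ighv1-72 and a much lower level of all other segments. Before TMM scaling, as CPM of the library total, Ighv1-72 was at 69.9, 90.6, 100.0 and 201.2 in HetTN-1 to HetTN-4 and at 129.98, 117.3, 101.6 and 93.8 in HetTP-1 to HetTP-4. It was at 209.5, 287.6, 386.6 and 316.5 in KOTN-1 to KOTN-4 and at 283.0, 217.3, 296.7 and 202.0 in KOTP-1 to KOTP-4. Every homozygous library lay above every heterozygous library, although HetTN-4 came close to KOTP-4. For KOTN against HetTN the log2 fold change by edgeR's quasi-likelihood test was 1.44 (SE 0.28, adjusted p = 0.0025), and for KOTP against HetTP 1.40 (SE 0.28, adjusted p = 0.00247). With only the 8 compared libraries in the fit, 6 of the 8 KOTN against HetTN fits that left out 1 library (HetTN-2, HetTN-3 or any KOTN library) lost the call, with edgeR adjusted p between 0.0532 and 0.106.

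The other 114 segments together were at between 844.2 and 2641 CPM of the library total in heterozygous libraries and between 31.8 and 53.9 in homozygous libraries. Their mean was 1418 ± 840.5 in HetTN and 1205 ± 462.9 in HetTP, against 46.7 ± 5.04 in KOTN and 38.1 ± 5.50 in KOTP (SD, n = 4 each). The HetTN mean was 30.4 times the KOTN mean, and the HetTP mean 31.6 times the KOTP mean. As a percentage of all counts, the Ighv segments made up 0.097 to 0.271% of heterozygous and 0.023 to 0.044% of homozygous libraries. Bulk values cannot tell fewer cells that use a segment from less RNA per cell.

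**Figure D2:**
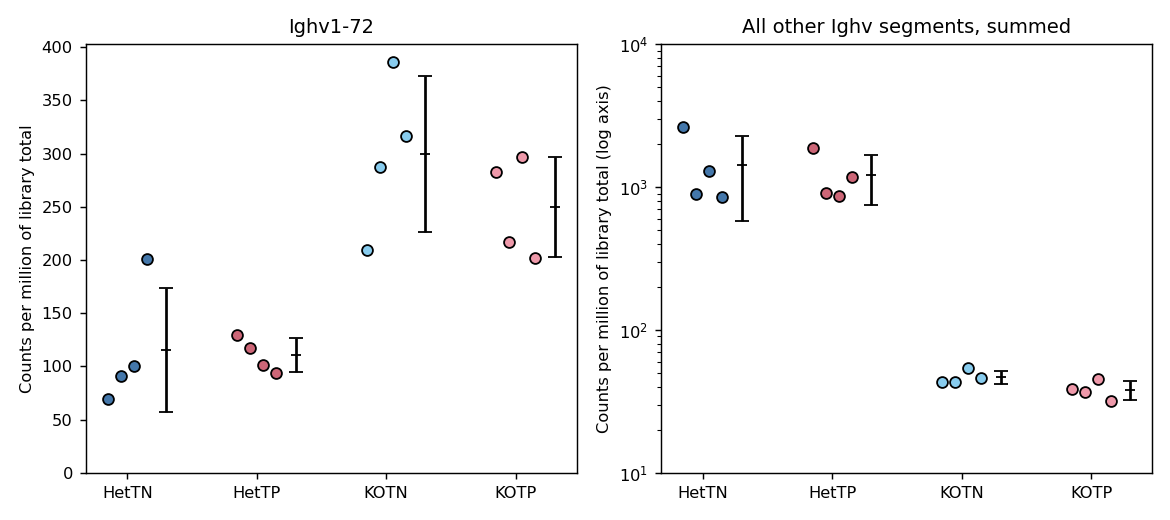
CPM of the library total for Ighv1-72 (left, linear axis) and for the 114 other Ighv segments summed (right, log axis), 1 point per library, with the group mean ± SD (n = 4) beside the points. Ighv1-72 is higher and the other segments are lower in each homozygous library than in each heterozygous library.

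Set against the heavy chain constant genes of the same library, which does not use the library total, Ighv1-72 was again higher and the rest lower in homozygous cells, with no overlap. Per 100 counts of the 8 constant genes, Ighv1-72 had 0.80 ± 0.59 in HetTN, 1.009 ± 0.19 in HetTP, 5.41 ± 1.03 in KOTN and 4.77 ± 0.62 in KOTP (SD, n = 4 each). The other segments had 8.16 ± 2.27, 10.5 ± 1.39, 0.848 ± 0.062 and 0.729 ± 0.064 per 100 constant gene counts in the same order. All Ighv segments together came to 8.97, 11.48, 6.25 and 5.49 per 100, so the sum was 1.43 times as high in HetTN as in KOTN and 2.09 times as high in HetTP as in KOTP. HetTN and KOTN overlapped on the sum, and HetTP and KOTP did not.

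In 4 heterozygous libraries a single segment other than Ighv1-72 took more than 30% of the Ighv counts. Each heterozygous library had a different leader among these segments. Ighv7-3 took 62.1% of the Ighv counts of HetTN-1, Ighv1-42 took 36.8% of HetTN-2 and Ighv13-2 took 48.0% of HetTN-3. In the other 3 HetTN libraries Ighv7-3 was between 0 and 1.98%, Ighv1-42 between 0 and 0.73%, and Ighv13-2 at 0. In HetTN-4 no segment reached such a share, and Ighv5-16 led the segments other than Ighv1-72 with 13.7%. HetTP-1 was led by Ighv11-2 with 41.4%, a segment best known from B1 cells, where it pairs with Igkv14-126 in antibodies to phosphatidylcholine. Ighv6-3 led the others in HetTP-2 with 8.53%, Ighv1-22 led HetTP-3 with 11.2% and Ighv1-80 led HetTP-4 with 15.1%. The lead was small in HetTP-2, where Ighv5-16 had 7.06%, and in HetTP-3, where Ighv5-12 had 10.9%. The 8 heterozygous libraries thus had 8 different leaders among the segments other than Ighv1-72.

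In the 4 libraries HetTN-1, HetTN-2, HetTN-3 and HetTP-1, a light chain or constant gene also stood out. The measure differs between these libraries and was not set beforehand. In HetTP-1, Igkv14-126 made up 42.5% of the kappa V counts, and in HetTN-2, Igkv6-15 made up 39.1%. The leading kappa segment took 8.99 to 20.4% in the other heterozygous libraries and 7.41 to 27.6% in the homozygous ones. In HetTN-1, Iglv2 made up 76.7% of the lambda V counts, against 6.09 to 24.1% in the other heterozygous libraries. In HetTN-3, Ighg2c made up 30.3% of the heavy chain constant counts, against 0.07 to 2.86% in the other heterozygous libraries. Bulk counts do not show which heavy and light chains came from the same cells.

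Among the 77 segments other than Ighv1-72 with at least 100 counts over the heterozygous libraries, 36 had more than 50% of their summed share in a single library. In the homozygous libraries 7 segments other than Ighv1-72 had at least 100 counts, and none of the 7 had more than 50% of its summed share in a single library. The counts outside Ighv1-72 were far fewer there, so this minimum kept mainly segments seen in many libraries, and the numbers are not comparable between the genotypes. Ighv5-6, with 98 counts over the homozygous libraries, was just under the minimum, and 78 of its counts came from KOTP-3. At least 5% of the Ighv counts of some library was reached by 14 segments in heterozygous cells and by Ighv1-72 alone in homozygous cells. The share of Ighv1-72 left little for other segments there. Of the 386 counts outside Ighv1-72 in KOTN-2, Ighv5-2 had 87.

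**Figure D3:**
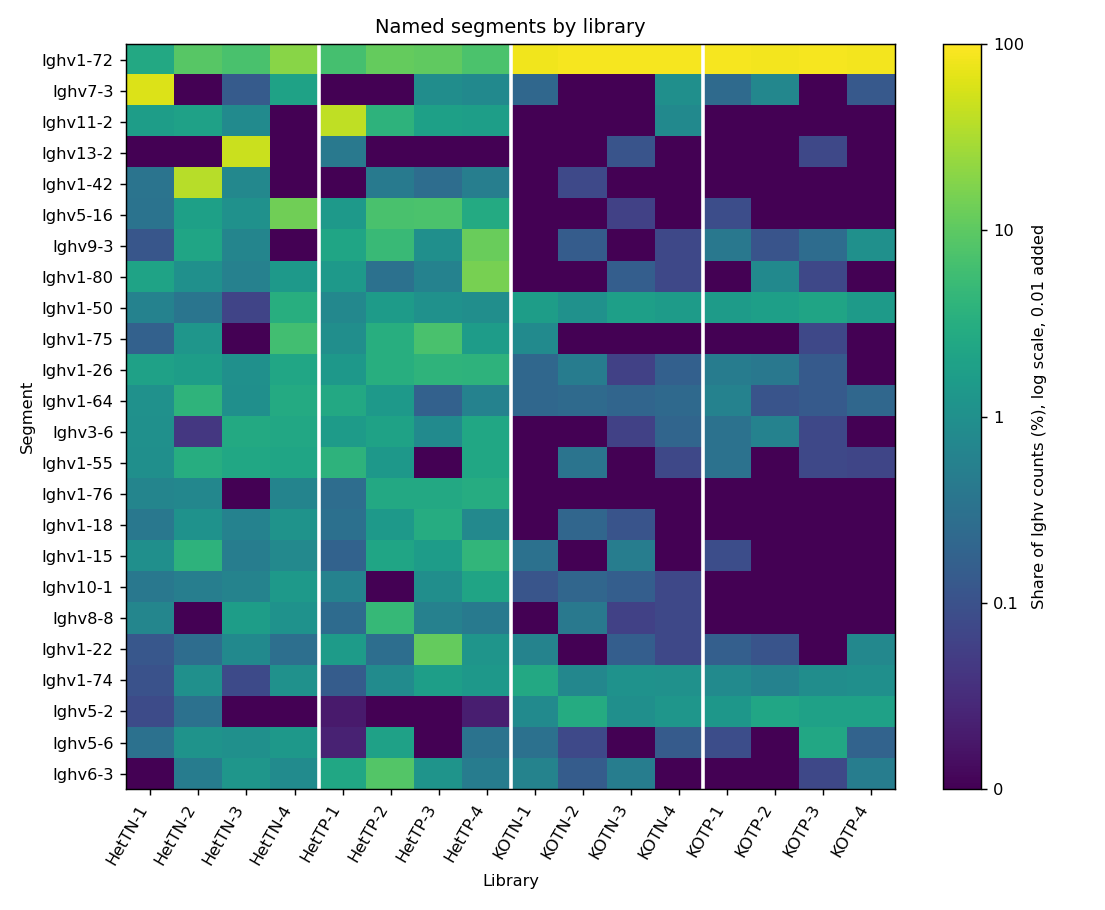
Share of Ighv counts (%, log colour scale after adding 0.01) of the 24 named segments, with segments as rows and the 16 libraries as columns. The Ighv1-72 row is bright in all homozygous columns, most other rows are bright in 1 or a few heterozygous columns, and Ighv1-50, Ighv1-74 and Ighv5-2 are seen in every homozygous column, at 0.59 to 2.93%.

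Some segments were found in every homozygous library at a low share. Ighv1-50 took 1.68, 1.04, 1.78 and 1.58% in KOTN-1 to KOTN-4 and 1.54, 1.82, 2.15 and 1.49% in KOTP-1 to KOTP-4, while its heterozygous shares ran from 0.06 to 3.19%. Ighv1-74 took 0.59 to 2.55% in homozygous and 0.07 to 1.76% in heterozygous libraries. The shares of both segments overlapped between the genotypes. Ighv1-69 took 0.57 to 1.43% in homozygous and 0.32 to 2.65% in heterozygous libraries. These 3 segments are at least 91.8% identical to Ighv1-72 over the V exon, and how reads that match several segments were counted is not stated, so their values are uncertain.

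Ighv5-2, at the low-coordinate end of the annotated segments and 58.6% identical to Ighv1-72, also had a higher share in homozygous cells. Its share was 0.82, 2.93, 0.98 and 1.26% in KOTN-1 to KOTN-4 and 1.31, 2.31, 1.93 and 1.91% in KOTP-1 to KOTP-4. In HetTN it was 0.07, 0.30, 0 and 0%, and in HetTP 0.01, 0, 0 and 0.01%. On the share every homozygous library lay above every heterozygous library. In CPM, HetTN-2 (2.95) lay above KOTN-1 (2.22). The edgeR log2 fold change was 6.05 (SE 1.72, adjusted p = 0.0292) for KOTP against HetTP, with 206 against 4 counts, and 2.18 (SE 1.42, adjusted p = 0.404) for KOTN against HetTN, with 182 against 50 counts. The call for KOTP against HetTP was lost in edgeR without HetTP-2, HetTP-3, HetTP-4 or any 1 of the KOTP libraries (adjusted p between 0.0538 and 0.0681) and in limma voom (adjusted p = 0.0819).

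Ighv1-62-3, the near-copy of Ighv1-72, had far fewer counts. It had between 0.454 and 2.51 counts per 100 counts of Ighv1-72 in heterozygous and between 0.59 and 1.09 in homozygous libraries, or 1.08 and 0.82 pooled. With 3 differing bases in the V exon, reads of the pair cannot be told apart over most of its length. The share of Ighv1-62-3 was higher in homozygous libraries, at 0.515 to 0.960% against 0.0228 to 0.196% in heterozygous ones, with no overlap. Its level overlapped, at 1.459 to 3.269 CPM in homozygous and 0.4565 to 2.913 CPM in heterozygous libraries. It was not called by edgeR in KOTN against HetTN (log2 change 1.555, SE 1.047, adjusted p = 0.425). Nor was it in KOTP against HetTP (0.588, SE 1.024, edgeR adjusted p = 0.856). The other close relatives did not share 1 direction on the share. Ighv1-74 had a mean share of 1.08% in homozygous and 0.789% in heterozygous libraries, and Ighv1-50 of 1.64 and 1.06%. Ighv1-53 and Ighv1-64, both 96.1% identical, had mean shares of 0.136 and 0.234% in homozygous against 1.29 and 1.68% in heterozygous libraries. On level, each of these relatives had a negative log2 change in KOTN against HetTN and in KOTP against HetTP. The changes were -0.424 and -2.055 for Ighv1-74 and -1.254 and -1.145 for Ighv1-50, none of them called. For Ighv1-53 they were -5.886 (edgeR adjusted p = 0.0323) and -4.228 (0.096, not called), and the call was kept in 11 of 16 leave-out fits. For Ighv1-64 they were -5.089 and -4.392, both called. Across the 114 other segments, Spearman's rho between identity to Ighv1-72 and mean share was 0.217 in homozygous and 0.292 in heterozygous libraries, as a description over segments that share libraries and ancestry.

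The evenness of use was summarised as the effective number of segments, the exponential of the Shannon entropy, which equals the number of segments that would give the same entropy if used equally. It was 7.62, 16.5, 12.4 and 25.1 in HetTN-1 to HetTN-4 and 15.9, 27.1, 27.1 and 28.7 in HetTP-1 to HetTP-4. It was 2.73, 2.14, 2.09 and 2.18 in KOTN-1 to KOTN-4 and 2.12, 2.30, 2.11 and 2.25 in KOTP-1 to KOTP-4. Every homozygous library lay below every heterozygous library, while HetTN and HetTP overlapped, as did KOTN and KOTP. The means were 15.4 ± 7.42 in HetTN, 24.7 ± 5.89 in HetTP, 2.29 ± 0.30 in KOTN and 2.19 ± 0.10 in KOTP (SD, n = 4 each).

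Without Ighv1-72, few counts were left in homozygous libraries, 294 to 502, against 9703 to 21389 in heterozygous ones. The effective number of the other segments was 7.11, 15.6, 11.4 and 29.5 in HetTN-1 to HetTN-4 and 14.9, 27.8, 27.4 and 28.2 in HetTP-1 to HetTP-4. It was 23.7, 17.8, 20.2 and 22.4 in KOTN-1 to KOTN-4 and 24.2, 18.0, 14.7 and 20.6 in KOTP-1 to KOTP-4. The genotypes overlapped on this measure, and the HetTN libraries spread the most. At an equal depth of 294 counts, the fewest in any library, the expected values were 14.5 ± 8.88 in HetTN, 22.4 ± 5.92 in HetTP, 20.7 ± 2.61 in KOTN and 19.2 ± 4.04 in KOTP (SD, n = 4 each), still with overlap. The order and the overlap also depended on rare segments. KOTN was above HetTN by 5.12 with all segments, but the difference was -4.47 when only segments with at least 10 counts in a library were kept. With that minimum KOTP was below HetTP by 13.96 in place of 5.18, and these groups no longer overlapped, at 8.56 to 12.8 in KOTP against 14.8 to 27.7 in HetTP.

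**Figure D4:**
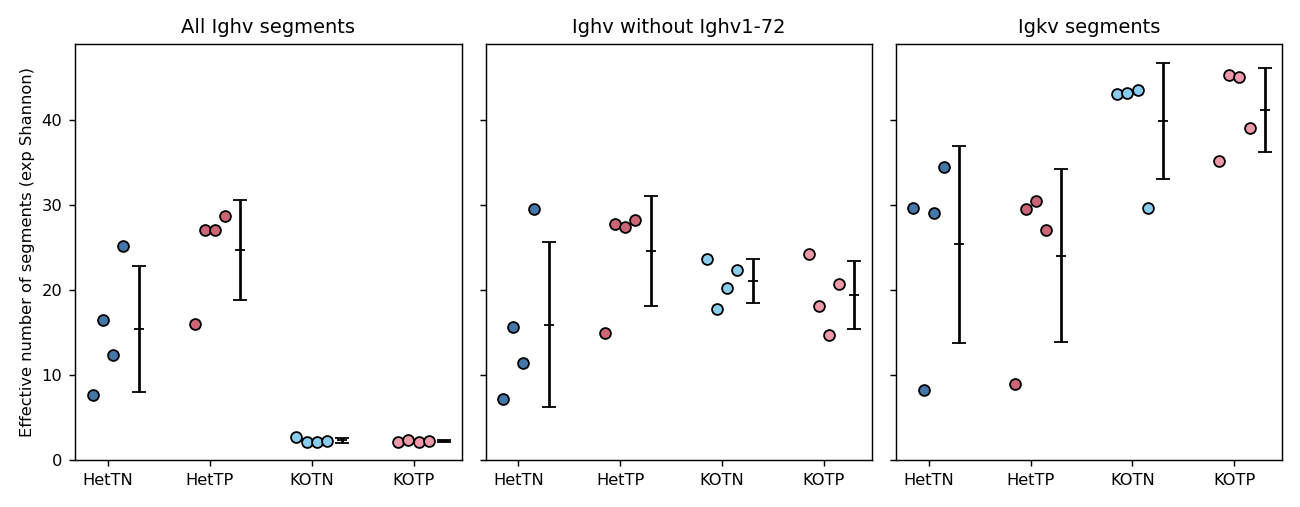
Effective number of segments (exponential of the Shannon entropy) per library for all Ighv segments, for Ighv segments without Ighv1-72 and for the kappa V segments, with the group mean ± SD (n = 4) beside the points. The homozygous libraries sit at 2.09 to 2.73 in the left panel and overlap the heterozygous ones in the middle panel.

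The kappa V segments, of which 101 were listed, were not used less evenly in homozygous cells. Their effective number was 25.3 ± 11.6 in HetTN, 24.0 ± 10.2 in HetTP, 39.9 ± 6.83 in KOTN and 41.1 ± 4.91 in KOTP (SD, n = 4 each). KOTP lay above HetTP without overlap, while KOTN and HetTN overlapped. Homozygous libraries held 5136 to 8038 kappa V counts and heterozygous ones 36680 to 120536, and no kappa values at equal depth were computed. Iglv1, the lambda 1 V segment, made up 12.3 to 29.5% of the light chain V counts in heterozygous and 79.6 to 84.6% in homozygous libraries. The genotypes separated on the share of Iglv1 as they did on that of Ighv1-72.

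More segments were detected in heterozygous libraries (54 to 70) than in homozygous ones (30 to 38). At an equal depth of 1960 Ighv counts, the number in the shallowest library, the expected numbers were 47.1 to 57.7 and 28.6 to 36.2. This matched the total Ighv counts only, most of which were Ighv1-72 in homozygous libraries. At an equal depth of 294 counts of the other segments, 36.7 to 44.7 of them were expected in heterozygous and 28.2 to 36.1 in homozygous libraries. The genotypes did not overlap at either depth, but at the second the gap was narrow. Only 7 segments had counts in all 16 libraries, namely Ighv1-50, Ighv1-52, Ighv1-62-3, Ighv1-64, Ighv1-69, Ighv1-72 and Ighv1-74. All 7 belong to the Ighv1 family. A share of 0 allows up to 0.0137 to 0.0263% of the Ighv counts in a heterozygous library and up to 0.0731 to 0.1531% in a homozygous library, taking 3 counts as the limit. This limit takes counts as independent. Low counts in homozygous libraries were mostly even numbers, so the limit may be too low there.

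By family, the 54 Ighv1 segments, the largest family of the locus, held 21.2 to 73.3% of the Ighv counts in heterozygous and 93.0 to 94.9% in homozygous libraries. Without Ighv1-72 the family held 18.6 to 64.1% and 6.56 to 10.97%. The 11 Ighv5 segments held 4.08 to 24.3% and 1.34 to 4.97%. The Ighv3 family had 1.18 to 6.49% in heterozygous and 0 to 0.84% in homozygous libraries, with no overlap. Since Ighv1-72 took 82.8 to 87.98% of the homozygous Ighv counts, little was left for any other family. The family shares thus do not compare use among the segments other than Ighv1-72. The Ighv7, Ighv11 and Ighv13 families reached 62.6, 41.8 and 48.0% in the single library led by a segment of theirs and at most 2.00, 3.93 and 0.402% in the other heterozygous libraries.

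Each segment was then tested with edgeR's quasi-likelihood test in a fit over all genes, and a segment was called when its Benjamini-Hochberg adjusted p over all genes tested was under 0.05. In KOTN against HetTN, 57 of the 115 segments passed the filter on low counts, of which 1 was higher and 19 were lower. Of all genes tested, 10.5% were called, 5.61% higher and 4.88% lower. The median log2 fold change of the 57 segments was -4.92, against 0.01 over all genes. Alone, the homozygous libraries would have passed 9 segments, so most of the 57 were tested because of their heterozygous counts, and these numbers describe only those. The 1 higher segment was Ighv1-72.

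Among the lower segments Ighv5-16 had the smallest p. It had 0.33, 1.85, 1.06 and 13.7% of the Ighv counts in HetTN-1 to HetTN-4, and 2 counts in all 4 KOTN libraries together against 2152 in HetTN. Its level was 757 times as high in HetTN, with a 95% counting interval of 209.5 to 6248, but 1641 of the 2152 counts came from HetTN-4. Without that library it was 235 times as high (65.1 to 1942). Low counts in homozygous libraries were mostly even numbers, such as 4, 2, 10, 2, 8 and 34 for Ighv9-3 in the libraries where it was found. Counts there may thus not be independent events, which was not tested. The counting intervals and the folds given as at least, here and below, take counts as independent. The intervals may thus be too narrow and those folds too high. Ighv1-26, with 25 against 1107 counts, changed by -5.07 (SE 0.84, edgeR adjusted p = 0.000762), and its KOTN shares of 0.05 to 0.47% lay below its HetTN shares of 0.99 to 2.33%. Ighv1-64 changed by -5.09 (SE 0.94, edgeR adjusted p = 0.00177), and its near-identity to Ighv1-72 makes its value uncertain. The log2 changes of Ighv1-18, Ighv1-55, Ighv1-80 and Ighv3-6 lay between -6.48 and -5.07. Ighv1-80 was 75.4 times as high in HetTN, and 44.2 times as high without HetTN-1. Ighv1-76 had 296 counts in HetTN and none in KOTN, which makes it at least 69.4-fold lower, or at least 44.9-fold lower without HetTN-1.

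Ighv9-3 changed by -5.46 (SE 1.37, edgeR adjusted p = 0.0159), but lost the call without KOTN-1 (adjusted p = 0.0513 in edgeR) or KOTN-3 (0.0574) and in limma voom (0.274). It was 48.6 times as high in HetTN, and 25.3 times as high without HetTN-2. The count of called segments was 12 without KOTN-1 and 10 without KOTN-2, KOTN-3 or KOTN-4, and 9 of the 20 segments kept the call in each of the 16 fits that left out 1 library. Of the segments that led a library, Ighv1-42 was called lower (edgeR adjusted p = 0.0252), a call kept in 11 of the 16 fits and lost in edgeR without HetTN-2 or any 1 KOTN library (adjusted p between 0.0758 and 0.148). It had 2 counts in KOTN against 4427 in HetTN, a level 1557 times as high in HetTN (95% counting interval 430.9 to 12850), but 4195 of these counts came from HetTN-2. Without HetTN-2 it was 108 times as high (29.9 to 892.7). Ighv7-3 gave -8.52 (SE 2.66, edgeR adjusted p = 0.0611) and was not called.

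In KOTP against HetTP, again 57 segments were tested, 2 were higher and 21 lower. Of all genes tested, 10.3% were called, 5.06% higher and 5.22% lower. The median log2 fold change was -5.66 over the segments and -0.03 over all genes. As in the first comparison, most of the 57 were tested because of their heterozygous counts, and these numbers describe only those. The higher ones were Ighv1-72 and Ighv5-2. Ighv5-16 had 1.38, 7.06, 7.29 and 2.79% in HetTP-1 to HetTP-4, and 2 counts in KOTP against 2777 in HetTP, a level 900 times as high in HetTP (95% counting interval 249 to 7428). Ighv1-26 changed by -5.49 (SE 0.86, edgeR adjusted p = 0.000347). Ighv1-18, Ighv1-76, Ighv8-8 and Ighv10-1 had no count in KOTP and were at least 178-, 277-, 177- and 137-fold lower. Without the library with most counts of the segment, Ighv1-18 was at least 111-fold lower (without HetTP-3), Ighv8-8 at least 60.8-fold (without HetTP-2) and Ighv10-1 at least 78.9-fold (without HetTP-4).

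Ighv1-15 and Ighv1-75 had 2 counts each in KOTP against 1295 and 1976 in HetTP, a level 420 (95% counting interval 116 to 3464) and 640 (177 to 5286) times as high in HetTP. Without HetTP-4 the first was 247 times as high (68.4 to 2041), and without HetTP-3 the second was 407 times as high (112.7 to 3363). Ighv11-2 had no count in KOTP and 9914 in HetTP, which makes it at least 2141-fold lower, but 8849 of these counts came from HetTP-1, and without it the bound was 291-fold. Its call was lost in edgeR when any KOTP library or KOTN-4 was left out (adjusted p between 0.0585 and 0.0681). Of the 23 called segments, 17 kept the call in all 16 leave-out fits. The same 13 segments were called lower in both comparisons, which is 68.4% of the 19 and 61.9% of the 21. Over all genes tested, 291 were lower in both, 55.9% of the 521 and 52.2% of the 558, and both comparisons came from 1 fit.

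The libraries of the groups did not overlap for 1 higher and 19 lower segments in KOTN against HetTN and for 2 higher and 21 lower in KOTP against HetTP. Over all genes tested, 19.7 and 20.1% did not overlap. The segments were those tested, most of which passed the filter because of their heterozygous counts. The common biological coefficient of variation, which measures the spread between libraries over all genes, was 0.845 among the heterozygous and 0.20 among the homozygous libraries.

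The tdTomato comparisons found no called segment. In heterozygous cells 54 segments were tested and 0 were called, against 0% of all genes, and 4 had an unadjusted p under 0.05. DESeq2 called 1. The median log2 fold change of the segments was 0.05, and 0.02 over all genes. The log2 change of Ighv1-72 was -0.20 (SE 0.33, edgeR adjusted p = 1). Without HetTN-4 the sign of this value turned, to 0.24.

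The segment that DESeq2 called was Ighv14-4, named here after its values were seen. It had 73, 121, 71 and 84 counts in HetTN-1 to HetTN-4 and 0, 0, 2 and 0 in HetTP-1 to HetTP-4. The groups did not overlap, and no single HetTN library stood out. The log2 fold change was -7.55 (SE 1.99, adjusted p = 0.758) in edgeR and -7.85 (SE 1.64, adjusted p = 0.00161) in DESeq2. Over all genes tested, 4.85% did not overlap between HetTP and HetTN, and this held for 2 higher segments and 1 lower segment. In homozygous cells Ighv14-4 had 8 counts in KOTP-1 and none in the other libraries, and it was among the segments lower in KOTN against HetTN, a call lost in edgeR without KOTN-2, KOTN-3 or KOTN-4 (adjusted p between 0.0535 and 0.056).

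In homozygous cells 9 segments passed the filter and 0 were called by edgeR or DESeq2, against 2.37% of all genes (0.892% higher, 1.47% lower), and none had an unadjusted p under 0.05. The log2 change was -0.24 (SE 0.19, edgeR adjusted p = 0.74) for Ighv1-72, -0.04 (SE 0.36, 0.989) for Ighv1-50 and 0.06 (SE 0.39, 0.979) for Ighv5-2. No segment was without overlap between KOTP and KOTN, against 7.45% of all genes.

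The tdTomato effect was also compared between the genotypes. Of 57 segments 0 were called, against 0.122% of all genes (0.0749% higher, 0.0468% lower), 5 had an unadjusted p under 0.05, and DESeq2 called 1, Ighv14-4. For Ighv1-72 the difference of the log2 changes was -0.04 (SE 0.38, edgeR adjusted p = 1), and its sign turned in 7 of the 16 fits that left out a library (0.02 to 0.16).

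Genes that act on or with the heavy chain locus were read from lists. Of the 8 constant genes, 1 was higher and 2 were lower in KOTN against HetTN, with a median log2 change of -0.19. In KOTP against HetTP 2 were higher and 2 lower, with a median of 1.06. The medians over all genes were 0.01 and -0.03. Of all genes, 5.61% were higher and 4.88% lower in the first comparison, and 5.06 and 5.22% in the second. Ighd, the IgD constant gene, whose expression needs Zfp318, changed by -4.97 (SE 0.25, edgeR adjusted p = 5.81e-10) and -5.26 (SE 0.25, 2.67e-10). Ighm changed by -2.21 (SE 0.20, edgeR adjusted p = 1.6e-06) and -1.67 (SE 0.19, 1.8e-05), and Ighg2b by 2.25 (SE 0.305, 0.000117) and 2.43 (SE 0.307, 4.31e-05). Ighm made up 60.5 to 91.7% of the constant counts in heterozygous and 45.8 to 55.7% in homozygous libraries.

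Octamer factors and other regulators of V promoters and enhancers (16 genes) had 2 higher and 4 lower in KOTN against HetTN and 0 higher and 6 lower in KOTP against HetTP, with medians of -0.25 and -0.63. Over all genes, 5.61% were higher and 4.88% lower in the first, and 5.06 and 5.22% in the second. Pou2f2, which encodes the octamer factor Oct2, changed by -0.99 (SE 0.23, edgeR adjusted p = 0.0106) and -0.94 (SE 0.23, 0.0119). Tcf3, which encodes the E proteins E12 and E47, changed by -1.53 (SE 0.34, edgeR adjusted p = 0.00755) and -1.84 (SE 0.34, 0.00149). Pou2af1, the B cell coactivator of octamer factors, changed by -0.85 (SE 0.235, edgeR adjusted p = 0.0245) in KOTP against HetTP.

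None of the 6 genes of V(D)J recombination and the surrogate light chain passed the filter. Dntt and Igll1 had no count in any library. Rag1, which encodes a subunit of the recombinase, was at 17.0 CPM in HetTP-1, the library led by Ighv11-2, at 0.257 CPM in KOTP-1 and at 0 in the other 14 libraries. Rag2 was at 2.83 CPM in HetTP-1 and at 0 elsewhere.

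Of 9 genes of somatic hypermutation, 0 were higher and 2 lower in each genotype comparison, with medians of -0.51 and -0.46. Over all genes, 4.88% were lower in KOTN against HetTN and 5.22% in KOTP against HetTP. Polh, the error-prone polymerase eta, changed by -1.80 (SE 0.42, edgeR adjusted p = 0.0108) and -1.96 (SE 0.42, 0.0049). Of 8 partners of the B cell receptor, 4 and 5 were higher and 0 lower, with medians of 0.49 and 0.55. Over all genes, 5.61 and 5.06% were higher. Cd79b, a signalling chain of the receptor, changed by 0.41 (SE 0.105, edgeR adjusted p = 0.0175) and 0.74 (SE 0.11, 0.000146). Between tdTomato-positive and tdTomato-negative cells, no gene of these 5 lists was called in heterozygous mice. In homozygous mice 1 constant gene was higher and 1 lower, Exo1 was lower, and Cd81 was lower, against 0.892% of all genes higher and 1.47% lower.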

How the data were processed

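RNA of about 1000 sorted cells per library was made into Smart-seq2 libraries, per the labels' protocols. The submitters' processing notes name the genome build mm10 and the tools Trim Galore (adapter trimming), STAR version 2.2.0 (alignment) and featureCounts (counting). The deposited raw counts are per gene over coding sequence, per the file headers, in 1 table for each genotype. Strand use and the treatment of reads that match several genes are not given in the sources used here, so values of near-identical segments are uncertain. The deposited score columns are the same counts after the authors scaled each library by its mapped reads, and they served only to read off counts per mapped read.

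The tables were joined by symbol (22675 of 22680 genes). Differences were tested with edgeR 4.0.16 (R 4.3.3) quasi-likelihood fits with TMM scaling, filterByExpr and robust dispersion. Comparisons within a genotype used the 8 libraries of its table, and comparisons between genotypes all 16. Adjusted p-values are Benjamini-Hochberg over all genes tested, with a threshold of 0.05. Shares, effective numbers and exact permutation tests used Python 3.11.15 with numpy 2.4.6, pandas 2.3.3 and scipy 1.17.1. Where a group had no counts, a fold was taken against a limit of 3 counts over the group, and with 1 to 3 counts a 95% Poisson interval was used. Both take counts as independent, which the mostly even low counts of homozygous libraries leave uncertain. Alternatives were DESeq2 1.42.0, limma 3.58.1 voom, other scalings and filters, other evenness measures, the compared libraries alone and leaving out each library. Expected values at equal depth were computed and not drawn. Those without Ighv1-72, and folds without the library with most counts, were chosen after seeing the data.

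The segments named were Ighv1-72, the 10 others with the highest mean share, up to 10 called with the smallest p in each comparison, and the leader of each library after Ighv1-72. Ighv1-53, Ighv1-62-3 and Ighv1-69, which are similar to Ighv1-72, were named outside this rule, after their values were seen. From each gene list up to 4 called members with the smallest p could be named, and the levels of genes not called were added after their values were seen. The members, lists and tests were chosen with earlier results of these data known. Replicate numbers were not used as pairs: the correlation of same-numbered libraries was between -0.006 and 0.099. For libraries with different numbers it was between -0.127 and 0.096.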

Additional observations from a re-analysis of the deposited data

Results flagged for a closer look

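Each group of 4 libraries was searched for a library set apart from the others. The gap to its nearest neighbour had to be too large a part of the group's range by Dixon's test at 95%. About 1 in 20 groups passes this limit by chance when the value searched was not picked for being high. The search covered Ighv1-72, the summary measures, and the 10 segments with the highest mean share after it and the leader of each library where they reached 1% in the group, and no other segment. Segments other than Ighv1-72 were thus searched because of high shares in these same libraries, for some mostly in 1 library. The chance rate does not hold for them, and their results are a description only. In HetTN, single libraries stood apart for Ighv7-3 (62.1% of Ighv counts in HetTN-1), Ighv1-42 (36.8% in HetTN-2), Ighv13-2 (48.0% in HetTN-3) and Ighv5-16 (13.7% in HetTN-4). In HetTP, they did for Ighv11-2 (41.4% in HetTP-1), Ighv1-22 (11.2% in HetTP-3), Ighv1-80 (15.1% in HetTP-4) and Ighv5-6 (1.92% in HetTP-2). HetTP-1 also stood apart with the lowest effective number of segments, 15.9 with and 14.9 without Ighv1-72. In KOTN, the library KOTN-1 had the lowest Ighv1-72 share, 82.8%, and the highest effective number, 2.73. In KOTP, Ighv5-6 reached 2.47% in KOTP-3.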

How the results depend on the processing

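The directions of the Ighv1-72 share and level between genotypes held under every alternative run. edgeR called 20 segments in KOTN against HetTN. The count was 10 to 26 over the leave-out fits, with 12 without KOTN-1 and 10 without KOTN-2, KOTN-3 or KOTN-4. With the compared libraries alone it was 14, and 5 to 18 when 1 was also left out (8, 6, 6 and 5 without KOTN-1 to KOTN-4). In KOTP against HetTP the 23 calls became 19 to 28. DESeq2 called 29 and 32 segments in these comparisons, and 1 (Ighv14-4) each in HetTP against HetTN and in the difference of the tdTomato effects, where edgeR called 0. With only segments of at least 10 counts, the Ighv1-72 share differed by 80.3 points in KOTP against HetTP, and the effective number without Ighv1-72 by -4.47 in KOTN against HetTN and -13.96 in KOTP against HetTP (5.12 and -5.18 with all segments). At an equal depth of 294 counts, an alternative chosen after seeing the data, the last 2 were 6.18 and -3.20. Inverse Simpson numbers differed by -5.34 and -13.9 and Pielou's evenness by -0.384 and -0.505 in the genotype comparisons (effective numbers -13.1 and -22.5). In HetTP against HetTN Pielou's evenness differed by 0.1135, and by 0.1137 without Ighv1-72 (effective numbers 9.32 and 8.69). Leave-out fits gave Ighv1-72 log2 changes of -0.406 to 0.241 in HetTP against HetTN (turned without HetTN-4) and -0.486 to 0.161 for the difference of the tdTomato effects, and Ighv14-4 changes of -1.94 to 4.46 in KOTP against HetTP (turned without KOTP-1). The cause of these changes was not tested. Fits with the replicate number as a block called 0 segments in both tdTomato comparisons and in their difference, as without it. Homozygous libraries held 1960 to 4102 Ighv counts, which limits what can be seen of rare segments.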
